A study of Mus musculus with 23 samples.

Results

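The 10 genes described here encode receptors through which hormones and nerves drive digestive enzyme secretion by the pancreatic acinar cell, together with the core of the calcium signal that those receptors start. They are the receptors *Cckar*, *Chrm3*, *Chrm1*, *Sctr*, *Vipr1* and *Adcyap1r1*, the G protein gene *Gnaq*, the inositol trisphosphate (IP3) receptors *Itpr2* and *Itpr3*, and the calcium pump gene *Atp2a2*. They were chosen by gene symbol, with earlier results of these data known and no measured value as a criterion, and all 10 were among the 18512 symbols counted in 23 mice. All mice were of the C57BL/6 strain, from 6 to 8 weeks of age and from 20 to 25 g in weight, and RNA came from the head of the pancreas. The baseline group held 8 non-injured mice (4 females and 4 males). The day 7 group held 8 mice (4 females and 4 males) and the day 14 group 7 mice (3 females and 4 males). Both of these groups had received caerulein, a peptide that acts on the cholecystokinin receptor. It was given at 50 µg/kg in each of 8 injections a day for 2 days. The groups are named by days counted from the day after the last injection. The comparison asks how the RNA levels of these genes, the receptor for caerulein among them, stood at day 7 and at day 14.

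In acinar cells, cholecystokinin and acetylcholine act through receptors coupled to Gq, which activates phospholipase C, and the IP3 so made opens IP3 receptors on the endoplasmic reticulum (ER). The released calcium triggers exocytosis of zymogen granules and is returned to the ER by the pump SERCA2, the product of *Atp2a2*. Secretin, vasoactive intestinal peptide (VIP) and the related peptide PACAP act instead through receptors that raise cAMP, and caerulein given above the physiological range disturbs the calcium signal and provokes pancreatitis.

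Each mouse had between 7059890 and 9567446 counts. Of these the 20 most abundant genes held 66.4% to 71.2% in the baseline mice, between 55.3% and 62.8% in the day 7 mice, and 63.9% to 66.2% in the day 14 mice. Levels below are CPM, counts divided by a library size that was scaled by the trimmed mean of M values (TMM), with factors from 0.769 to 1.40. A gene passed the test when its adjusted p in edgeR's quasi-likelihood F test was at most 0.05, with all 23 mice in 1 fit and p-values adjusted by the Benjamini-Hochberg method over 12195 genes. A differentially expressed gene (DEG) also differed by a fold change of at least 1.5. The labelled tissue matched its markers, since 12 acinar enzyme genes summed to between 289482 and 707640 CPM in every mouse. Each time point was compared across separate mice, so the p-values measure the spread between mice. In bulk tissue, fewer cells of a type and less RNA per cell cannot be told apart.

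The promoters of the 2 members that passed a test are shown first, *Gnaq* for the difference at day 7 and *Adcyap1r1* for the difference between the sexes. RefSeq (GRCm38.p6) gave promoter windows of 300 bases, which run past the RefSeq transcription start, for 6 of the 10 members: *Chrm3*, *Vipr1*, *Adcyap1r1*, *Gnaq*, *Itpr2* and *Itpr3*. Capitals mark GC boxes (GGGCGG) and CCAAT boxes (CCAAT) on either strand, which did not overlap. The *Adcyap1r1* window lies at chr6:55451728-55452027 on the plus strand and the *Gnaq* window at chr19:16132434-16132733 on the plus strand. The *Gnaq* window ends upstream of the start of the gene in GENCODE vM21, chr19:16132831, from which the gene positions below were taken.
Adcyap1r1: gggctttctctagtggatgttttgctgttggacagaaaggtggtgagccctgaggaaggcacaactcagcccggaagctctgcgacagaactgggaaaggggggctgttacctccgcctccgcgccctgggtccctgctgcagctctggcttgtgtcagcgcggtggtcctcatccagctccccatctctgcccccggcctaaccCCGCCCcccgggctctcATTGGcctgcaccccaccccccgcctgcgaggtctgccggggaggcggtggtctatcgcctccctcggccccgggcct
Gnaq: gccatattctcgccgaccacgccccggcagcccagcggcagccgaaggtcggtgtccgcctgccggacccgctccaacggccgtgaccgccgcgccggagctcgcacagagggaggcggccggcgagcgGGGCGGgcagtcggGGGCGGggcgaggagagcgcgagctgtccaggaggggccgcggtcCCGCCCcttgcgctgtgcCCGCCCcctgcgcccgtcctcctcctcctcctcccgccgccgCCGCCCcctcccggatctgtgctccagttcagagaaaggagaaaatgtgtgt
The *Gnaq* window held 5 GC boxes and no CCAAT box, and the *Adcyap1r1* window held 1 of each. GC boxes were found in 35.7% and CCAAT boxes in 37.4% of the 32851 promoter windows of this length. The cAMP response element (TGACGTCA, in 1.79% of windows), the oestrogen response element (GGTCA and TGACC spaced by 3 bases, in 0.0700%) and the androgen response element (AGAACA and TGTTCT spaced by 3 bases, in 0.00913%) were searched for on both strands and were not found in the window of any of the 6 members. GC content was 67.3% for *Adcyap1r1* and 75.0% for *Gnaq*, against a median of 52.7% over all windows.

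Levels of different genes were compared per kilobase of exon (the union of exons in GENCODE vM21, GRCm38). At baseline *Cckar*, the cholecystokinin receptor of the acinar cell (chr5:53697776-53707705, minus strand), had by far the highest level of the 10, at 133 ± 10.9 CPM per kilobase (SD, n = 8). *Atp2a2* (chr5:122453513-122502225, minus strand) followed at 30.6 ± 4.37 CPM per kilobase. *Itpr2* (6.22 ± 0.546) and *Gnaq* (6.09 ± 0.413) came next and their ranges overlapped. *Itpr3* (3.97 ± 0.611), *Vipr1* (3.23 ± 0.693) and *Chrm3* (2.71 ± 0.414) formed the middle of the order, with each overlapping its neighbour. The lowest levels were those of *Adcyap1r1* (0.769 ± 0.321), *Sctr* (0.381 ± 0.178) and *Chrm1* (0.277 ± 0.130), and again neighbours overlapped. No mouse had fewer than 2667 counts of *Cckar*, whereas *Sctr* had 2 to 19 counts and *Chrm1* 2 to 23 counts per mouse. The limit taken for detection, 3 counts, corresponded to 0.314 to 0.425 CPM before TMM scaling and covers counting error only.

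Neither of the main Gq-coupled receptors of the acinar cell showed a time difference that passed the test. *Cckar* was 404, 501 and 531 CPM in the lowest, median and highest baseline mouse, 371, 510 and 571 CPM at day 7, and 381, 488 and 562 CPM at day 14. The groups overlapped over most of their range. Its log2 fold change from baseline was 0.06 (SE 0.0820, edgeR adjusted p = 0.677) at day 7 and -0.02 (SE 0.0849, edgeR adjusted p = 0.970) at day 14. The muscarinic receptor *Chrm3* (chr13:9875486-10360847, minus strand), which carries most of the cholinergic drive to acinar cells, was 13.4, 16.7 and 20.9 CPM at baseline, 11.1, 15.9 and 17.8 CPM at day 7, and 14.6, 15.5 and 18.5 CPM at day 14. None of its comparisons passed the test (log2 fold change -0.14 at day 7 and -0.07 at day 14). *Chrm1* (chr19:8663789-8683587, plus strand), the muscarinic receptor better known from neurons and glands, was scarce, at 0.863, 1.96 and 2.84 CPM at baseline, 0.220, 1.09 and 2.23 CPM at day 7, and 0.879, 1.21 and 1.57 CPM at day 14. Its log2 fold change of -0.64 at day 7 (SE 0.276, edgeR adjusted p = 0.104) had the largest size of any member but did not pass. Without day 7 mouse 9 or without day 7 mouse 13 it did pass (edgeR adjusted p = 0.0494 and 0.0421). Over the 23 fits that each left out a mouse, the edgeR adjusted p ranged from 0.0421 to 0.195, with few counts of *Chrm1* per mouse.

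The receptors that raise cAMP likewise showed no time difference that passed. *Vipr1* (chr9:121642716-121672954, plus strand), a receptor for VIP and PACAP, was 13.6, 19.5 and 23.7 CPM at baseline, 15.4, 16.97 and 26.5 CPM at day 7, and 14.4, 16.9 and 20.7 CPM at day 14. *Adcyap1r1* (chr6:55451978-55501451, plus strand), the receptor selective for PACAP, was 2.26, 5.26 and 8.15 CPM at baseline, 2.97, 4.91 and 7.72 CPM at day 7, and 3.52, 5.27 and 9.42 CPM at day 14. The wide range of *Adcyap1r1* within each time point followed sex, as described below. Its log2 fold change at day 14 was 0.32 (SE 0.145, edgeR adjusted p = 0.324). The secretin receptor *Sctr* (chr1:120006894-120063536, plus strand), which in the pancreas is best known from duct cells, had too few counts for the filter of this fit. In a fit without the filter its log2 fold change was 0.21 at day 7 (SE 0.335, edgeR adjusted p = 0.755) and 0.32 at day 14 (SE 0.346, edgeR adjusted p = 0.800), from 2 to 19 counts per mouse.

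*Gnaq*, the alpha subunit of Gq (chr19:16132831-16387463, plus strand), was the only member with a time difference that passed the test with TMM scaling. Its level was 33.6, 38.0 and 41.2 CPM in the lowest, median and highest baseline mouse, 26.5, 31.8 and 36.9 CPM at day 7, and 29.9, 37.3 and 39.8 CPM at day 14. At day 7, 5 of the 8 mice were below every baseline mouse, and at day 14, 2 of 7 were. *Gnaq* fell by 0.25 on the log2 scale at day 7 (SE 0.0648, edgeR adjusted p = 0.00789), a fold change of 0.843 that was short of a DEG. In the fit by sex the log2 fold change at day 7 was -0.23 in females (SE 0.0978) and -0.27 in males (SE 0.0994), and the interaction was -0.04 (SE 0.139, edgeR adjusted p = 0.982). At day 14 the difference from baseline was -0.06 (SE 0.0672, edgeR adjusted p = 0.761), and from day 7 to day 14 it was 0.18 (SE 0.0663, edgeR adjusted p = 0.179).

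Both IP3 receptors of the acinar cell, which open to start each calcium spike, had no time difference that passed, and neither had the pump that refills the ER. *Itpr2* (chr6:146108299-146502223, minus strand) was 82.6, 90.2 and 104 CPM at baseline, 82.4, 88.8 and 123 CPM at day 7, and 78.6, 88.2 and 109 CPM at day 14. *Itpr3* (chr17:27057304-27122223, plus strand) was 29.4, 34.4 and 45.4 CPM at baseline, 29.0, 31.7 and 40.1 CPM at day 7, and 28.7, 31.8 and 36.4 CPM at day 14. At day 7 the log2 fold change was 0.03 for *Itpr2* (SE 0.0813, edgeR adjusted p = 0.857) and -0.15 for *Itpr3* (SE 0.0798, edgeR adjusted p = 0.206). The pump gene *Atp2a2* was 165, 172 and 236 CPM at baseline, 153, 172 and 204 CPM at day 7, and 142, 171 and 206 CPM at day 14. Its log2 fold change was -0.08 at day 7 (SE 0.0827, edgeR adjusted p = 0.524) and -0.10 at day 14 (SE 0.0857, edgeR adjusted p = 0.691).

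**Figure D1:**
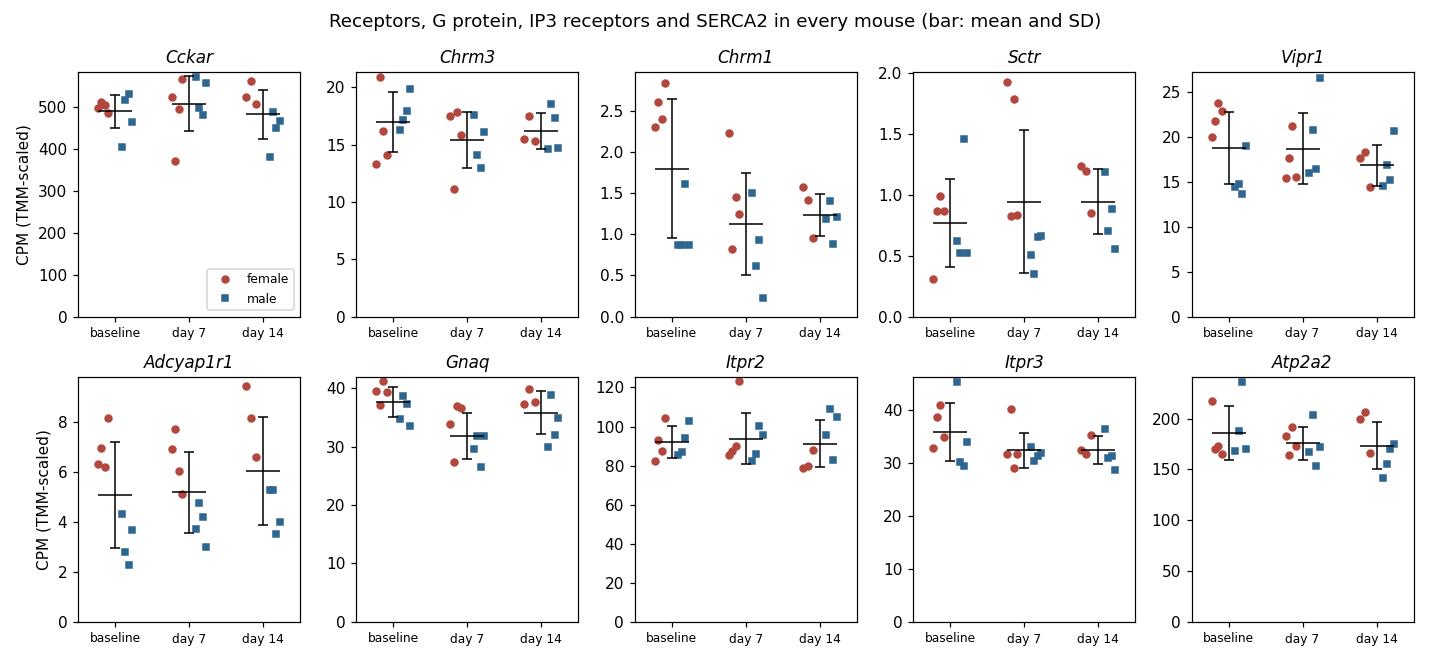
Level of each of the 10 members in every mouse, in CPM on TMM-scaled library sizes, by time point; circles are females, squares are males, and bars give the mean and SD of the 8, 8 and 7 mice. The *Gnaq* points were lower at day 7 (26.5 to 36.9 CPM) than at baseline (33.6 to 41.2 CPM), while the *Cckar* groups overlapped over most of their range. With total count scaling *Gnaq* was higher, not lower, at day 7.

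Of the 9 members tested, 0 rose and 1 fell at day 7, where 8.86% of all genes tested were higher and 9.7% lower past the same threshold, and 0 were DEGs, against 5.13% of all genes. At day 14 0 of 9 passed edgeR's test against baseline (1 with an unadjusted p under 0.05, 0 by DESeq2), where 1.05% of all genes were higher and 0.525% lower. Between day 7 and day 14 0 of 9 passed edgeR's test (1 with an unadjusted p under 0.05, 0 by DESeq2), where 1.01% of all genes were higher at day 14 and 0.279% lower. The median log2 fold change of the 9 members at day 7 was -0.08, beside 0.02 over all genes tested.

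These directions were relative to the TMM scaling, which sets most genes to no change. Scaled by total counts instead, the median of all genes tested moved to 0.47 at day 7 and 0.22 at day 14 on the log2 scale, and 8 of the 9 members passed as higher at day 7. *Cckar* then had a log2 fold change of 0.50 at day 7 (SE 0.0655, edgeR adjusted p = 5.15e-07), close to that shift. *Gnaq* reversed to 0.20 (SE 0.0604, edgeR adjusted p = 0.00488), which was less than the shift of all genes. With total count scaling that left out the 20 most abundant genes, *Gnaq* again fell by 0.17 (SE 0.0581, edgeR adjusted p = 0.0341) and was the only member to pass, with a median of all genes of 0.10. A change of scaling shifts *Gnaq* and the median gene nearly alike, so its place below the median gene at day 7 is 1 observation under all 3 scalings. Set against total counts *Gnaq* was higher.

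**Figure D2:**
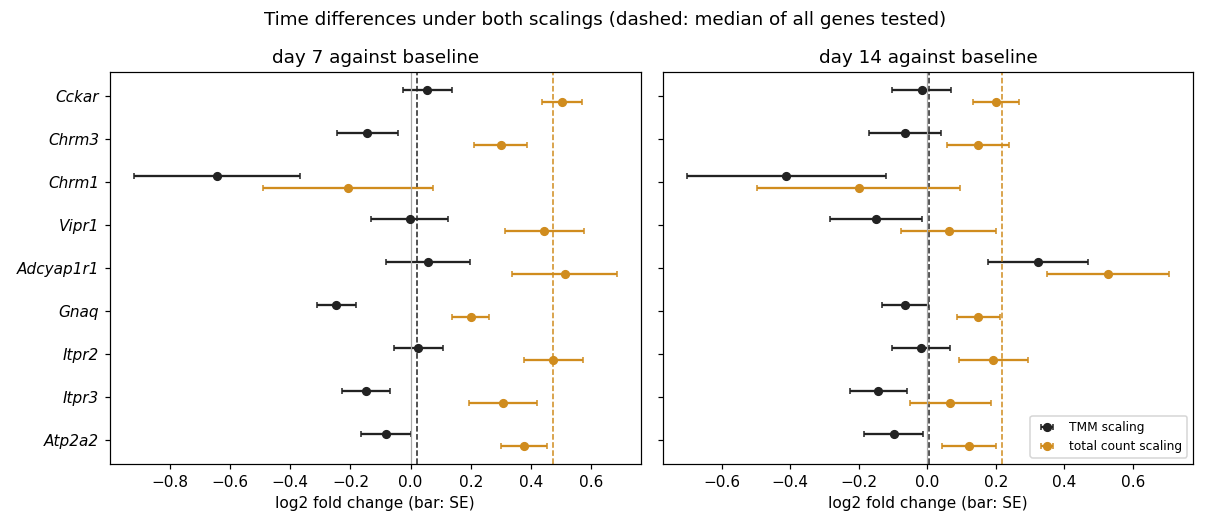
Log2 fold change from baseline of the 9 members tested, at day 7 and at day 14, with TMM scaling (black) and with total count scaling (orange); bars are SE and dashed lines give the median of all 12195 genes tested. At day 7 the median moved from 0.02 to 0.47 between the scalings, and the members moved with it, so that *Gnaq* went from -0.25 to 0.20.

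Because ratios of genes within a library do not depend on its scaling, 3 pairs were compared between time points with exact two-sided permutation tests, adjusted over 9 tests. The ratio of *Cckar* to *Chrm3* counts was 23.3, 29.7 and 37.0 in the lowest, median and highest baseline mouse, 27.6, 34.0 and 36.9 at day 7, and 25.9, 31.6 and 33.8 at day 14. Its log2 difference at day 7 was 0.19 (exact permutation p = 0.0716, adjusted p = 0.269), and the groups overlapped. The ratio of *Itpr3* to *Itpr2* differed by -0.16 at day 7 on the log2 scale (exact permutation p = 0.250, adjusted p = 0.450). The ratio of *Atp2a2* to *Atp2a3*, the SERCA3 gene, spread widely, with a range of 7.24 to 55.2 in the baseline mice, 6.87 to 27.8 in the day 7 mice and 7.98 to 42.6 in the day 14 mice. Its log2 difference at day 7 was -0.76 (exact permutation p = 0.0895, adjusted p = 0.269), and without baseline mouse 5 it was -1.05 with an adjusted p of 0.0168 by the exact permutation test.

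The members were also set against other genes of the acinar cell in the same library, a comparison chosen after the effect of scaling had been seen and given as a description. The 12 genes listed as acinar enzymes all fell at day 7 (12 of 12, median log2 fold change -0.72). With total count scaling 9 of the 12 also fell. They are a selection of the cell's secretory genes and include *Sycn*, whose product binds the zymogen granule membrane. The authors report several trypsinogen genes outside this list as up-regulated after injury. The fall is therefore stated for the listed genes only, not for all enzyme genes of the acinar cell. At day 14, 6 of the 12 fell (median -0.30). Because the denominator fell, the median of the 12195 genes tested had a ratio to the summed enzyme counts 1.65-fold that of baseline at day 7 and 1.26-fold at day 14. The ratio of *Cckar* to the enzymes was 1.68-fold that of baseline at day 7 and that of *Itpr2* 1.65-fold, close to the median gene. The ratios of *Atp2a2* (1.54-fold), *Itpr3* (1.48-fold), *Chrm3* (1.47-fold) and *Gnaq* (1.36-fold) lay below it. At day 14 the *Cckar* ratio was 1.23-fold that of baseline, again near the median gene.

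Against another denominator the members keep nearly the same position relative to the median gene, so such ratios are no independent check. The other denominator used was the summed counts of 6 acinar transcription factor genes. Of these 3 fell at day 7 (*Rbpjl*, *Gata4* and *Bhlha15*, with a list median of -0.23), and with total count scaling 3 of the 6 rose. The median gene had a ratio to their sum 1.17-fold that of baseline at day 7, beside 1.19-fold for *Cckar* and 1.17-fold for *Itpr2*. The ratio was 1.10-fold for *Atp2a2*, 1.05-fold for *Itpr3*, 1.04-fold for *Chrm3* and 0.969-fold for *Gnaq*. Whether any member differed from the median gene in these ratios was not tested.

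**Figure D3:**
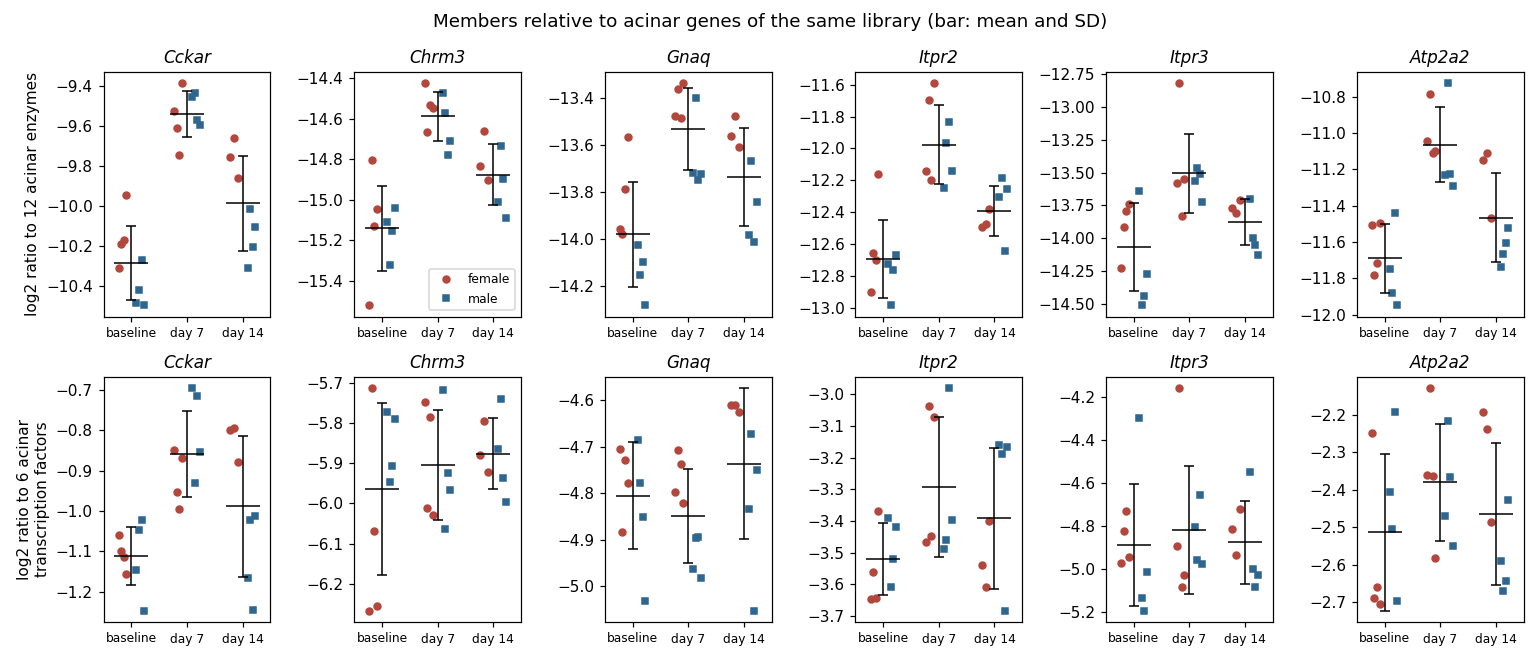
Log2 ratio of the counts of 6 members to the summed counts of 12 acinar enzymes (top row) and of 6 acinar transcription factors (bottom row) in every mouse, by time point; circles are females, squares are males, and bars give the mean and SD. The vertical axes differ between panels and do not start at 0. In the top row all 8 day 7 mice lay above every baseline mouse for *Cckar*, *Chrm3* and *Atp2a2*. In the bottom row this held for *Cckar* only. The summed enzymes themselves did not overlap between these groups, at 289482 to 431828 CPM at day 7 against 478085 to 707640 CPM at baseline. How many of all genes separated in this way was not counted. The median of all genes tested had a ratio 1.65-fold (top) and 1.17-fold (bottom) that of baseline at day 7.

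Markers of other cells moved at the same time point. At day 7, 6 of 7 fibroblast markers rose, with summed levels of 591 to 1140 CPM against 314 to 624.7 CPM at baseline. Of 8 macrophage markers 7 rose (79.9 to 174 CPM against 42.0 to 130 CPM), and 4 of 8 islet markers rose (406 to 1158 CPM against 136 to 563 CPM). The 12 listed acinar enzyme genes summed to 289482 to 431828 CPM at day 7 against 478085 to 707640 CPM at baseline. Of 9 ductal markers 3 rose (182 to 294 CPM against 166 to 246 CPM), and 1 of 6 endothelial markers fell. No tested marker of lymphocytes, adipocytes, smooth muscle and pericytes, or neurons and glia passed at day 7. Summed lymphocyte markers spread widely between mice, from 0.330 to 105 CPM at day 7 against 0.174 to 59.9 CPM at baseline. The part of these cells in the values of the members was not tested.

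The wider pathway was read from 10 lists of 126 genes, of which 97 had enough counts. At day 7, 18 of these 97 fell and 6 rose, 2 of them DEGs, beside 9.7% lower, 8.86% higher and 5.13% DEGs over all genes. With total count scaling 0 of the 97 fell and 69 rose, where 9272 of all 12195 genes rose. At day 14 1 fell and 1 rose. Of 10 further Gq and phospholipase C genes 3 fell and 1 rose. *Plcb4*, a phospholipase C beta, fell by 0.59 on the log2 scale (SE 0.107, edgeR adjusted p = 0.000408), and *Gna11*, the closest relative of *Gnaq*, fell by 0.34 (SE 0.0666, edgeR adjusted p = 0.000716). *Plce1*, a phospholipase C regulated by small GTPases, rose by 0.48 (SE 0.116, edgeR adjusted p = 0.00433). *Plcb4* was the 1 pathway gene still lower at day 14 (log2 fold change -0.47, edgeR adjusted p = 0.0261).

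In the cAMP branch 5 of 15 genes fell at day 7 and 1 rose. *Prkaca* and *Prkar2a*, a catalytic and a regulatory subunit of protein kinase A, fell by 0.34 and 0.30, and the adenylyl cyclase gene *Adcy9* fell by 0.33. *Gnas*, the Gs alpha subunit gene, named after its value was seen, fell by 0.27 (SE 0.0670, edgeR adjusted p = 0.00489). Among 11 regulators of receptor desensitization, *Arrb1*, an arrestin, fell by 0.40 (SE 0.0698, edgeR adjusted p = 0.000241). The GTPase activators *Rgs4* and *Rgs2*, which shorten Gq signals, rose by 0.85 and 0.52. With total count scaling the log2 fold changes of *Gna11*, *Prkaca* and *Arrb1* at day 7 were 0.11, 0.11 and 0.05, *Gnas* passed as higher at 0.18, and *Plcb4* was at -0.14.

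Genes of calcium release, entry, removal and response, with those of exocytosis, were called in both directions. Of these, 2 of 55 were higher and 9 of 55 lower at day 7 beside the 8.86% and 9.7% of all genes. *Tpcn1*, a lysosomal channel, was the 1 of 5 other release channels that fell (log2 fold change -0.57, SE 0.0947, edgeR adjusted p = 0.000127). Of 8 genes of store-operated entry, the ER calcium sensor *Stim1* fell by 0.30 and the channel gene *Orai3* rose by 0.35. *Letm1* and *Slc8b1*, both of the mitochondrial inner membrane, were the 2 of 11 pumps, exchangers and uptake genes that fell, by 0.23 and 0.30. Of 17 calcium and diacylglycerol effectors *Camkk2* and *Ppp3ca* fell, by 0.57 and 0.26, and the calmodulin gene *Calm2* rose by 0.32 and was still higher at day 14 (0.28, edgeR adjusted p = 0.0459). Of 14 exocytosis genes *Ap3d1*, *Rab3d* and *Vamp2* fell, by 0.31, 0.27 and 0.41. With total count scaling *Letm1* (0.23), *Ppp3ca* (0.20), *Ap3d1* (0.14) and *Rab3d* (0.18) passed as higher at day 7. Of 6 other secretagogue and autonomic receptors tested 0 passed edgeR's test (1 with an unadjusted p under 0.05, *Vipr2* at a log2 fold change of -0.25, and 0 by DESeq2), and the second cholecystokinin receptor *Cckbr* stayed between 0.220 and 1.53 CPM in all mice. None of the 3 ligand genes in the files had enough counts for a test.

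*Adcyap1r1* was lower in males than in females over all time points and was the only member that passed the test between the sexes. Females had 6.20, 6.62 and 8.15 CPM at baseline, 5.09, 6.45 and 7.72 CPM at day 7, and 6.59, 8.16 and 9.42 CPM at day 14 (lowest, median, highest). Males had 2.26, 3.22 and 4.31 CPM at baseline, 2.97, 3.95 and 4.73 CPM at day 7, and 3.52, 4.62 and 5.27 CPM at day 14. Every male was below every female of the same time point, and in counts the ranges were 41 to 103 in females and 14 to 54 in males. How many of all genes separated the sexes in this way was not counted. Over all time points *Adcyap1r1* was lower in males by a log2 fold change of -0.86 (SE 0.116, fold change 0.550, edgeR adjusted p = 5.03e-05). Of the 9 members 1 was lower and 0 were higher in males, and 1 was a DEG; of all genes tested 0.295% were lower, 0.279% were higher and 0.23% were DEGs. Within time points the log2 fold change was -1.07 at baseline (SE 0.206, edgeR adjusted p = 0.0366), -0.70 at day 7 (SE 0.190, edgeR adjusted p = 0.248) and -0.84 at day 14 (SE 0.203, edgeR adjusted p = 0.151). The sex difference had the same direction under each scaling, from -0.94 with total counts to -0.85 with DESeq2.

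Markers of cells outside the acini are given beside *Adcyap1r1*, because nerves and islets can also carry this receptor; their part in the difference was not tested. Summed islet markers were 136 to 961 CPM in females and 291 to 1158 CPM in males, and the smallest edgeR adjusted p of the 8 between the sexes was 0.452, for *Sst*. Summed neuron and glia markers were 1.85 to 5.62 CPM in females and 1.29 to 6.35 CPM in males, with only 1 of 9 abundant enough to test. The glial markers *Sox10* and *S100b* had at most 7 counts each in any mouse. Of 7 fibroblast markers 1 passed edgeR's test as lower in males and 0 as higher.

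*Vipr1* and *Chrm1* were lower in all 4 baseline males than in the 4 baseline females, yet neither passed. The separations given here were picked from the 10 members at each time point because the sexes did not overlap. The share of all genes that separated in this way was not counted, so separation by chance was not assessed. *Vipr1* was 20.0 to 23.7 CPM in baseline females and 13.6 to 18.98 CPM in baseline males (log2 fold change -0.52, SE 0.156, edgeR adjusted p = 0.387). From baseline to day 7 its log2 fold change was -0.35 in females (SE 0.149) and 0.37 in males (SE 0.154), and the interaction was 0.72 (SE 0.215, edgeR adjusted p = 0.492). *Chrm1* over all time points was at -0.76 in males (SE 0.233, edgeR adjusted p = 0.188). *Cckar* at day 14 was 506 to 562 CPM in females and 381 to 488 CPM in males, without overlap (log2 fold change -0.26, SE 0.123, edgeR adjusted p = 0.812). *Sctr* at day 7 was 0.824 to 1.92 CPM in females and 0.351 to 0.661 CPM in males, without overlap (log2 fold change -1.28, SE 0.430, edgeR adjusted p = 0.511), from 8 to 19 counts against 4 to 7. Of the 10 members in this fit 0 passed edgeR's test of the interaction of sex with time, at day 7 or at day 14 (1 each with an unadjusted p under 0.05, 0 by DESeq2), where 0.00773% and 0% of 12933 genes did.

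**Figure D4:**
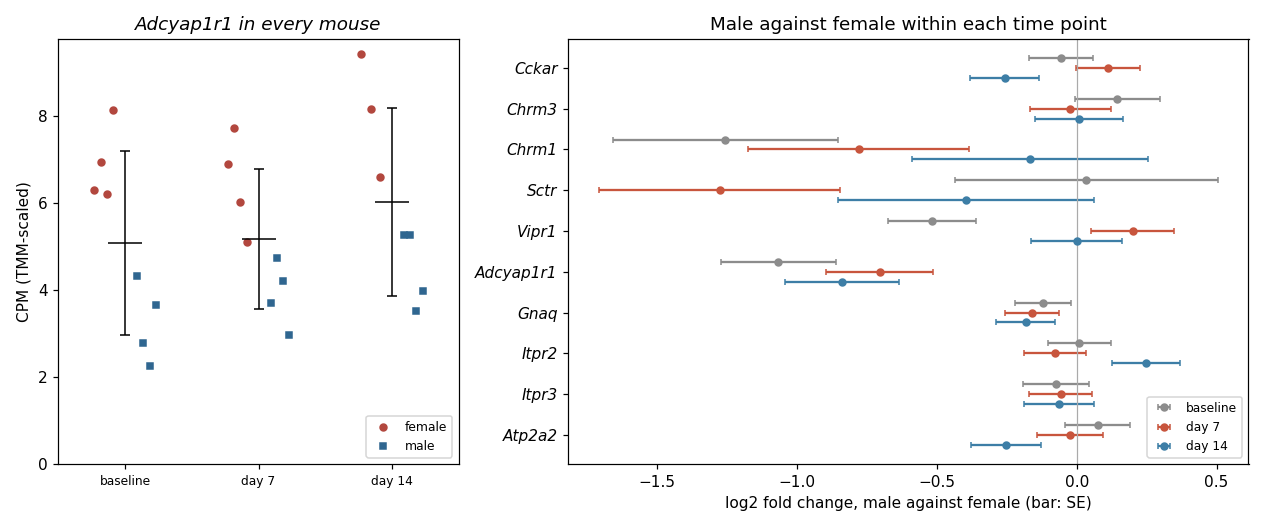
Left, *Adcyap1r1* in every mouse in CPM, with females as circles, males as squares and the mean and SD of each time point; right, log2 fold change of males against females within each time point for the 10 members, with SE. At each time point the highest male (4.31, 4.73 and 5.27 CPM) lay below the lowest female (6.20, 5.09 and 6.59 CPM). The share of all genes that separated in this way was not counted.

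Genes whose level most resembled that of each tested member were found from log2 CPM after removing the means of time point and sex, over 23 mice and 12195 genes; these correlations are descriptions, chosen as the highest of all genes, and libraries share depth and composition. The highest r values were those of *Atp2a2*, whose nearest genes were *Hspa5* (r = 0.94, rho = 0.90), *Kdelr2* (r = 0.93, rho = 0.89) and *Manf* (r = 0.93, rho = 0.90). *Hspa5* encodes the ER chaperone BiP, *Kdelr2* a receptor that retrieves ER proteins and *Manf* an ER-stress-induced factor. Without the 2 mice farthest from the median of *Atp2a2*, r was 0.91, 0.90 and 0.89. Ranked by rho instead, 3 other genes were nearest to *Atp2a2*. Their levels spanned 540 to 1322 CPM for *Hspa5*, 39.0 to 71.5 CPM for *Kdelr2* and 73.4 to 156 CPM for *Manf*.

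**Figure D5:**
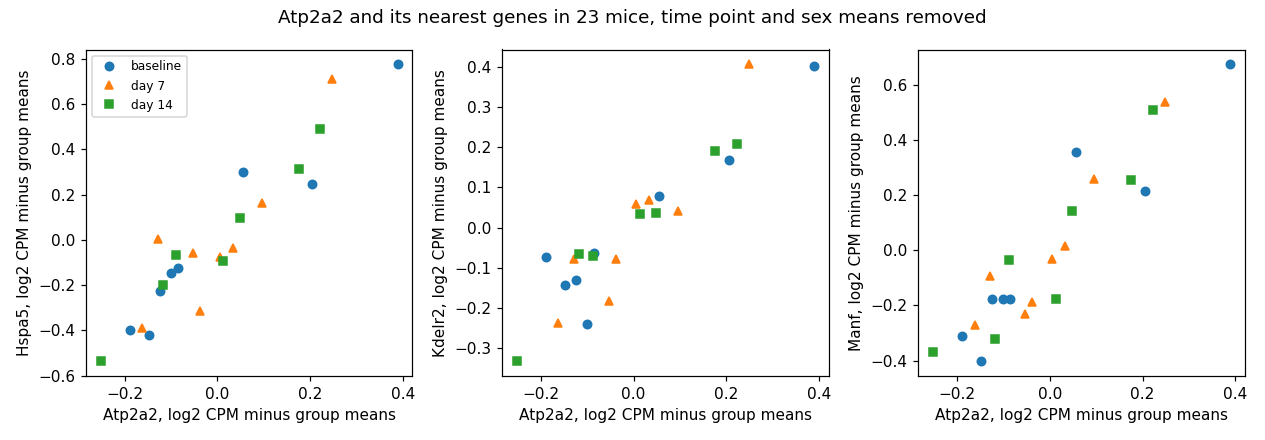
Log2 CPM of *Hspa5*, *Kdelr2* and *Manf* against that of *Atp2a2* in 23 mice, after removing the means of time point and sex; symbols give the time point. Over all 23 mice r was from 0.93 to 0.94. Removing the means gives the 3 time points a common centre, and r was not computed within a time point.

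The nearest genes of the other members had lower coefficients or depended more on single mice. For *Itpr3* they were *Chst14* (r = 0.89), *Adam23* (0.84) and *Pml* (0.84), and for *Cckar* they were *Fgl2* (0.88), *Iqgap2* (0.87) and *Gorasp2* (0.86). Without the 2 farthest mice *Fgl2* had an r of 0.78 with *Cckar*. *Adcyap1r1* was nearest to *Fbxo5* (r = 0.87, rho = 0.85), an inhibitor of the anaphase-promoting complex, to the kinetochore gene *Casc5* (0.80) and to *Mettl10* (0.79). *Chrm3* was nearest to *Dcxr* (0.84), *Kifc3* (0.83) and *Bckdha* (0.83), *Gnaq* to *Iars* (0.82), *Serf2* (0.80) and *Slc1a4* (0.79), and *Itpr2* to *Tmem220* (0.77), *Brap* (0.77) and *Sorbs3* (0.76). *Vipr1* had *Ddx26b* (0.74), *Wars* (0.74) and *Naprt* (0.74), and *Chrm1* had *Kctd21* (0.73), *Cdip1* (0.72) and *Plch1* (0.67). Among the members themselves *Cckar* and *Gnaq* were the most alike (r = 0.69, rho = 0.54), while *Itpr3* ran opposite to *Atp2a2* (r = -0.63, rho = -0.73), to *Cckar* (r = -0.60, rho = -0.33) and to *Gnaq* (r = -0.57, rho = -0.62).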

How the data were processed

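RNA was measured in the head of the pancreas of 23 mice. The authors depleted total RNA of ribosomal RNA, made stranded libraries, sequenced paired reads and deposited raw counts per gene symbol. Day 14 mouse 20 was not analysed here. The submitters' processing notes name FastQC, Trim Galore, cutadapt, STAR 2.5.2a, featureCounts and the mm10 build. The strand setting and annotation of the counting are not given in the sources used here. Overlaps with genes on the opposite strand exist for *Chrm1*, *Itpr3* and *Atp2a2*; counts without strand would mix such pairs.

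Groups came from the labels. Genes were kept by filterByExpr over the 3 time points, scaled by TMM and fitted with time point and sex as terms (estimateDisp, robust glmQLFit and glmQLFTest of edgeR 4.0.16, under R 4.3.3 with limma 3.58.1); SEs were derived from the F statistic and restate the test. A fit with 6 groups of sex and time point gave the interaction and the values within a sex or a time point. Ratios used counts plus 0.5. Those of 3 pairs were compared by exact two-sided permutation tests (scipy 1.17.1), without sex as a term, and those to acinar genes are given without a test beside the median of all genes. Log2 CPM had a prior count of 2. The code was tested on simulated data.

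Alternatives were DESeq2 1.42.0, its size factors in edgeR, total counts with and without the 20 most abundant genes, no filter, at least 10 counts in every mouse, no covariate, only the mice compared, a fold threshold, and leaving out each mouse. For ratios 0.1 or 2 was added. The members and lists were chosen with earlier results of these data known. Named genes were the members, up to 3 genes with the smallest p at day 7 of each pathway list, and the 3 genes nearest each member. Total counts of 7059890 to 9567446 per mouse limit the precision of genes with few counts.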

Additional observations from a re-analysis of the deposited data

Results flagged for a closer look

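In groups of 7 or 8 mice, 3 of 30 sets of values held 1 mouse whose gap to its nearest neighbour, relative to the range, was above Dixon's 95% critical value, which chance gives in about 1 in 20 groups. They came from 2 day 7 females. *Cckar* was lowest in mouse 10 at 371 CPM and *Itpr3* was highest in the same mouse at 40.1 CPM. *Itpr2* was highest in mouse 12 at 123 CPM. Mouse 10 also had the highest TMM factor, 1.40, and the lowest share of counts in the 20 most abundant genes, 55.3%; the part of this in its values was not tested. No member passed the test of the interaction of sex with time.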

How the results depend on the processing

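Without a mouse the number of members passing at day 7 was 1 to 2, and 0, 0 and 1 at day 14, between the days and between the sexes. The numbers over all genes ranged from 1903 to 2458 at day 7, from 100 to 221 at day 14 and from 81 to 228 between the days, beside 2264, 192 and 157 with all mice. The count at day 14 was 100 without day 14 mouse 19. Between the days it was 100 and 87 without day 7 mouse 14 or 15, and 81, 102 and 101 without day 14 mouse 22, 23 or 24.

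Total count scaling changed most: 8, 2 and 4 members passed in the 3 time comparisons and 2 between the sexes, with 9336, 3034 and 4107 genes in all, and 99.3%, 99.4% and 1.27% of the calls at day 7, at day 14 and between the days were then higher, in place of 47.7%, 66.7% and 78.3%. With that scaling these log2 fold changes reversed. At day 7 *Chrm3* was 0.30, *Vipr1* 0.44, *Gnaq* 0.20, *Itpr3* 0.31 and *Atp2a2* 0.38. At day 14 *Cckar* was 0.20, *Chrm3* 0.15, *Vipr1* 0.062, *Gnaq* 0.15, *Itpr2* 0.19, *Itpr3* 0.066 and *Atp2a2* 0.12. Between the days *Chrm3* was -0.15, *Gnaq* -0.050 and *Itpr3* -0.24, and between the sexes *Chrm3* was -0.028 and *Itpr2* -0.027. Without the 20 most abundant genes *Vipr1* at day 7 was 0.070, *Cckar* at day 14 was 0.0013 and *Itpr3* between the days was -0.055. With that scaling 71.1% of the day 7 calls and 48.0% of the calls between the days were higher, in place of 47.7% and 78.3%. *Vipr1* at day 7 was 0.00018 without a filter, 0.016 with at least 10 counts in every mouse and 0.0018 in a fit of only the mice compared, and *Itpr3* between the days was -0.0083 with at least 10 counts and -0.00072 without the covariate.

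Adding a fold change of at least 1.5 left 0 members at day 7 and 626, 96 and 46 genes in all. DESeq2 called 335 genes between the days, and the fit of only the mice compared called 306 at day 14; the cause was not tested. The calls of *Gnaq* (day 7) and *Adcyap1r1* (sex) remained past an adjusted p of 0.05 under each alternative, *Gnaq* with the sign reversed under total counts and short of a fold change of 1.5. Their adjusted p ranged from 0.00292 to 0.0341 and from 1.91e-08 to 0.000409.

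Leaving out single mice turned the sign of log2 fold changes near 0, none of which passed. The ranges were -0.10 to 0.045 for *Vipr1*, -0.011 to 0.12 for *Adcyap1r1* and -0.051 to 0.061 for *Itpr2* at day 7; -0.053 to 0.029 for *Cckar* and -0.060 to 0.013 for *Itpr2* at day 14; -0.085 to 0.029 for *Itpr2*, -0.032 to 0.054 for *Itpr3* and -0.054 to 0.029 for *Atp2a2* between the days; and -0.0040 to 0.078 for *Chrm3* between the sexes. At day 7, at day 14 and between the days the log2 ratio of *Cckar* to *Chrm3* ranged from 0.15 to 0.24, from -0.011 to 0.084 and from -0.20 to -0.13. That of *Itpr3* to *Itpr2* ranged from -0.21 to -0.090, from -0.16 to -0.049 and from -0.019 to 0.11, and that of *Atp2a2* to *Atp2a3* from -1.05 to -0.58, from -0.56 to -0.013 and from 0.30 to 0.75. Adding 0.1 or 2 to the counts changed no call of a ratio. The ratio of *Itpr3* to the transcription factors, near 0 in each comparison, ranged from -0.025 to 0.15 at day 7, from -0.041 to 0.098 at day 14 and from -0.11 to 0.038 between the days. Of the 27 genes named as nearest to a member, 7 were kept with rho and 13 with total counts. No paired analysis was possible because each mouse has a number of its own.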
